A study of Mus musculus with 4 samples.

Results

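The genes examined encode 9 chromatin regulators that keep Hox genes silent or active, 8 of the Polycomb group (Ezh2, Eed, Suz12, Rnf2, Bmi1, Cbx2, Cbx7 and Cbx8) and the trithorax gene Kmt2a. They were followed by every probe set that the platform annotation gives to exactly 1 of them, which were 25 of the 45101 probe sets on the array and 9 of its 18194 named genes. RNA came from the autopod, the future hand and foot at the tip of the mouse limb bud, cut to match the Hoxd13 domain of fore- and hindlimbs at E11.25. The 2 Hox13dKO samples came from C57BL/6 embryos homozygous for the loss of Hoxa13 and for HoxDdel, a deletion that removes Hoxd11, Hoxd12 and Hoxd13 together, so effects of the single genes are not separable. The 2 wild-type samples came from C57BL/6 embryos of the same stage, and samples within a group are titled as biological replicates. Neither the number of embryos behind a sample nor its share of forelimb is stated in the labels. The values are MAS5 signals, an arbitrary intensity unit on a linear scale, with 1 array per sample, and the number of arrays limits the precision.

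Polycomb proteins act in 2 kinds of complex. In Polycomb repressive complex 2 (PRC2), EZH2 places a repressive methyl mark on histone H3 and works only together with EED and SUZ12. In Polycomb repressive complex 1 (PRC1), a CBX protein reads that mark and RNF2, helped by BMI1, attaches ubiquitin to histone H2A. KMT2A, also called MLL1, opposes them with an activating methyl mark on histone H3. The balance between both groups keeps each Hox gene within its domain along the body axis and the limb, and mice lacking members of either group show shifted vertebral identities.

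None of the 8 regulators that could be tested passed between Hox13dKO and wild-type autopods, and Cbx7 was too dim to test. In limma's fit over all 27022 probe sets bright enough to test, 0 of the 19 tested probe sets of these genes passed a Benjamini-Hochberg adjusted p of 0.05, and 0 had an unadjusted p under 0.05, which 6.26% of all probe sets had. The same fit called 56 probe sets in all (0.207%; 0.115% higher and 0.0925% lower in Hox13dKO), so a count of 0 among 19 is near the background. By the brightest probe set of each gene the log2 differences, Hox13dKO minus wild type, lay between -0.44 (Cbx8) and 0.094 (Eed) over the 8 genes tested. Their median was -0.0066, beside -0.027 over all 13072 genes tested. The 95% interval of the difference stayed inside a 1.5-fold change for 7 of the 8, all but Cbx8, and for 35.6% of all genes tested. Intervals narrow with signal, and 6 of these genes had probe sets of at least 1000 units. The shares are not matched for signal, so they do not show the regulators to be unusually stable.

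**Figure D1:**
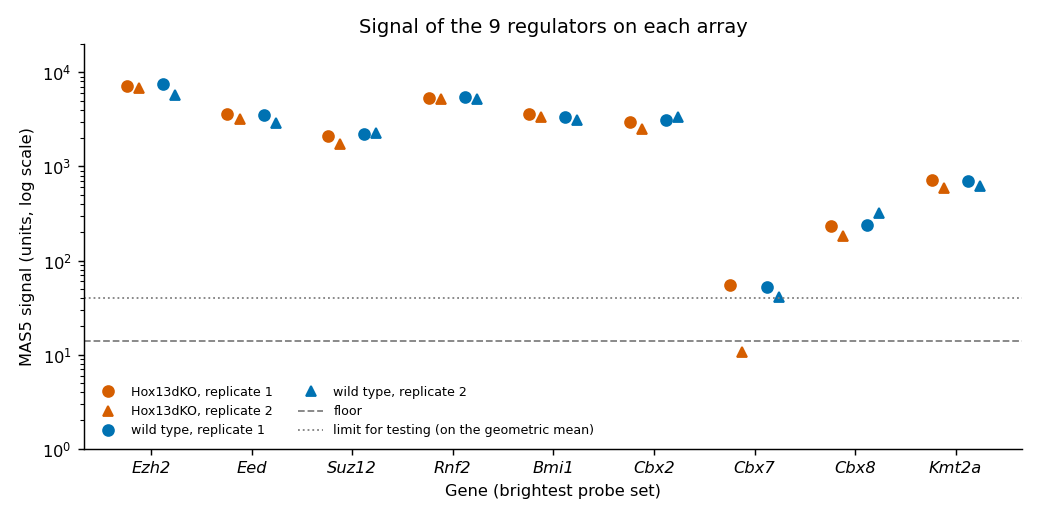
MAS5 signal (log scale) of the 9 regulators, by brightest probe set, on the 2 Hox13dKO arrays (orange) and the 2 wild-type arrays (blue), with circles for replicate 1 and triangles for replicate 2. Ezh2 sat between 5704 and 7600.2 units on the 4 arrays, whereas Cbx7 had 3 points above and 1 below the dotted line of 39.6 units, the limit its geometric mean fell short of. Heights of different genes come from different probes and are not comparable.

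Promoters are shown for Ezh2, the gene of the catalytic subunit, and for Suz12 and Cbx8, which are among the genes whose arrays separated by group (described further on). RefSeq's promoter table (GRCm38.p6) held 8 of the 9 genes, and the 250 bases before each start were read 5′ to 3′ on the gene's strand. Capitals mark CCAAT, the box bound by the factor NF-Y, and TTTNNCGC, a form of the site of the E2F cell cycle factors, on either strand.
Ezh2, chr6:47595031-47595280, minus strand: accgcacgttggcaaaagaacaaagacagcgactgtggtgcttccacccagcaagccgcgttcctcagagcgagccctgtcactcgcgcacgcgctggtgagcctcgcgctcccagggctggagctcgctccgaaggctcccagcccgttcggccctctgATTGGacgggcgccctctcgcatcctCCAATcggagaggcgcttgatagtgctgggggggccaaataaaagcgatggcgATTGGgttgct
Suz12, chr11:79992856-79993105, plus strand: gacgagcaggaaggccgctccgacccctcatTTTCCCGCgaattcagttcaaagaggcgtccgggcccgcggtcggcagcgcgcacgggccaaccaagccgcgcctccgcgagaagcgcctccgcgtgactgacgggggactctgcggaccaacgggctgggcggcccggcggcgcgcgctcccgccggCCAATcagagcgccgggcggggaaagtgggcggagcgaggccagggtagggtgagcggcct
Cbx8, chr11:119040914-119041163, minus strand: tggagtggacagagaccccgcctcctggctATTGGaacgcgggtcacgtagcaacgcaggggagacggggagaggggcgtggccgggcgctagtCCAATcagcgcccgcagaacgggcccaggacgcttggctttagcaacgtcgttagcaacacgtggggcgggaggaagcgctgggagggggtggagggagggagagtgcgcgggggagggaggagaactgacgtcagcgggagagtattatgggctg
TTTATTG, letters favoured by HOX13 proteins, was in 0 of the 8 windows and in 4.20% of all 32851 windows of the table, which says only that these letters are not in these windows. CCAAT was in 4 of the 8 (Ezh2, Suz12, Cbx7 and Cbx8) and in 33.8% of all windows, and TTTNNCGC was in 1 of the 8 (Suz12) and in 4.28% of all. These motifs shared no base in the windows shown. The 8 windows held 12 (Eed) to 37 (Suz12) CpG dinucleotides, with a median of 22.5, against a median of 6 over the table. Of all windows, 33.5% held at least the 12 of Eed.

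The PRC2 core was measured through Ezh2, Eed and Suz12. Ezh2, the catalytic subunit, read 7139 and 6835 units in Hox13dKO, against 7600.2 and 5704 units in wild type. The Hox13dKO values lay between the wild-type values, so the groups overlapped. The difference was 0.085 ± 0.16 on the log2 scale (SE, n = 2 each here and below), with a 95% interval of -0.28 to 0.45 (adjusted p = 0.975, limma). The gap between the 2 wild-type arrays, 0.41 on the log2 scale, was larger than the difference between the groups. Eed, whose protein binds the methyl mark and stimulates the enzyme, read 3643 and 3193 units in Hox13dKO, against 3492 and 2923 units in wild type. Its arrays also overlapped, and the difference was 0.094 ± 0.15, with an interval of -0.25 to 0.44.

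Suz12, the scaffold subunit of PRC2, read 2123 and 1751 units in Hox13dKO, against 2229.8 and 2270.25 units in wild type, by its brightest probe set. Both Hox13dKO arrays were below both wild-type arrays, yet the difference of -0.22 ± 0.15 did not pass (interval -0.57 to 0.12, adjusted p = 0.911, limma). Suz12 had 6 tested probe sets, and they fell into a precise and an imprecise set by their signal. The 3 with signals above 1000 units differed by -0.22, -0.16 and -0.11, with SEs of 0.15 to 0.17. The brighter pair separated with lower values in Hox13dKO, but both are _s_at probe sets, a type that may cross-hybridise. By the last, not of that type, the groups overlapped, at 1459 and 1121 units in Hox13dKO, against 1432 and 1336 units in wild type. The 3 with geometric mean signals of at most 72.2 units scattered, at 1.37 ± 0.61, 1.04 ± 0.74 and -0.61 ± 0.53. The first of them read 128 and 105 units in Hox13dKO, against 27.7 and 72.9 units in wild type, and was the only tested probe set of the 9 genes with both Hox13dKO arrays above both wild-type arrays (unadjusted p = 0.0536, adjusted p = 0.813, limma).

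**Figure D2:**
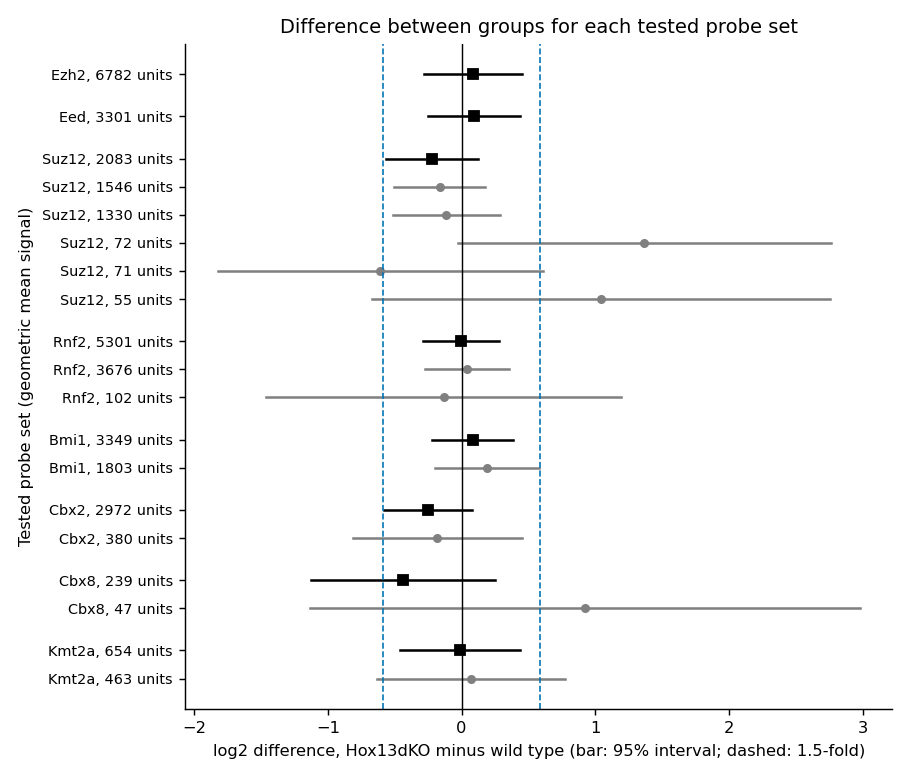
Log2 difference, Hox13dKO minus wild type, with its 95% interval for the 19 tested probe sets of the regulators, where black squares mark the brightest probe set of a gene, grey circles the others, and dashed lines a 1.5-fold change. All 19 intervals include 0, and the intervals widen from the bright probe sets, such as that of Rnf2 at 5301 units, to the dim ones, such as that of Cbx8 at 46.6 units.

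The PRC1 core was measured through Rnf2 and Bmi1. Rnf2, also called Ring1b, the ubiquitin ligase of the complex, read 5349 and 5242 units in Hox13dKO, against 5443 and 5173 units in wild type. The arrays of both groups were interleaved within this narrow band, and of the 8 genes Rnf2 had the smallest difference, -0.0029 ± 0.12 (interval -0.29 to 0.28), whose sign turned with median centring. Of all genes tested, 99.2% had a larger absolute difference. A second Rnf2 probe set, at 3819 and 3632 units in Hox13dKO and 3372 and 3905 units in wild type, differed by 0.037 ± 0.14. Another differed by -0.13 ± 0.58 at signals of 60.9 to 187 units, and the other two probe sets were too dim to test.

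Bmi1, the RING-finger partner of RNF2 and a repressor of the Ink4a locus, read 3566 and 3331 units in Hox13dKO, against 3389 and 3124 units in wild type. The groups overlapped, with a difference of 0.083 ± 0.13 (interval -0.22 to 0.39). Its other probe set read 2055 and 1808 units in Hox13dKO, against 1912 and 1488 units in wild type, a difference of 0.19 ± 0.17.

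The CBX genes encode the readers of the methyl mark, and 1 such protein enters each canonical PRC1 complex. Cbx2, which in mice is needed for axial patterning and for testis formation, read 2953 and 2515 units in Hox13dKO, against 3113 and 3375 units in wild type. Both Hox13dKO arrays were below both wild-type arrays, with a difference of -0.25 ± 0.14 that did not pass (interval -0.58 to 0.078, adjusted p = 0.893, limma). By its other probe set, at 366 and 348 units in Hox13dKO and 319 and 512 units in wild type, the groups overlapped (-0.18 ± 0.27).

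Cbx8 lies next to Cbx2 on mouse chromosome 11 in the order of protein-coding genes in RefSeq's table. It read 233 and 181 units in Hox13dKO, against 239 and 324 units in wild type, without overlap. The difference of -0.44 ± 0.30 was the largest in size of the 8 genes and 1.36-fold lower in Hox13dKO by the fit, but did not pass, and its interval ran from -1.13 to 0.25 (adjusted p = 0.913, limma). Of all genes tested, 20.5% had a larger absolute difference. The other Cbx8 probe set pointed the other way, at 0.92 ± 0.89, on signals of 72.6 and 56.7 units in Hox13dKO, against 2.79 and 81.0 units in wild type. The lowest of these, on wild type replicate 1, was below the floor of 14.1 units to which dim signals were raised.

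Cbx7, the main CBX gene of mouse embryonic stem cells, could not be tested, because all 3 of its probe sets fell short of the signal limit. The brightest read 54.3 and 10.75 units in Hox13dKO, against 52.3 and 41.1 units in wild type. The second read 35.9 and 40.9 units in Hox13dKO, against 39.6 and 19.4 units in wild type. The dimmest read 6.19 and 80.9 units in Hox13dKO, against 10.3 and 7.15 units in wild type. Signals at this level are not shown to be above background, and a difference in Cbx7 was not detectable on these arrays. Without the signal limit, the 3 differed by -0.74 ± 0.85, 0.47 ± 0.49 and 1.26 ± 1.04, in no common direction.

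Kmt2a, the trithorax member, whose loss in mice lowers the maintained expression of Hox genes, read 722 and 588 units in Hox13dKO, against 701 and 615 units in wild type. The wild-type values lay between the Hox13dKO values. The difference was -0.010 ± 0.19 (interval -0.46 to 0.44), with its sign turned by median centring, and by the other probe set it was 0.070 ± 0.30.

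Counted by brightest probe set, Suz12, Cbx2 and Cbx8 separated with lower values in Hox13dKO, and 0 of the 8 genes separated with higher values. In either direction, the 3 of 8 compare with 37.2% of all genes tested, so that share was near the background. With lower values in Hox13dKO, the same 3 of 8 compare with 20.1% of all genes. Over the 19 tested probe sets, 1 separated with higher and 5 with lower values in Hox13dKO, against 16.3% and 18.3% of all probe sets tested (34.6% in all). A proliferation list of 18 tested genes stood beside them with 0 past the threshold, 7 separated with lower values in Hox13dKO and a median of -0.11. It was led by Rrm2, a subunit of ribonucleotide reductase (-0.37 ± 0.13), Tyms, thymidylate synthase (-0.77 ± 0.37), and the mitotic kinase gene Aurkb (-0.24 ± 0.13). Whether proliferation had a part in the values of Suz12, Cbx2 and Cbx8 was not tested.

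The 2 arrays of a group also differed from each other. In Hox13dKO, replicate 2 read lower than replicate 1 for 8 of the 8 genes, against 49.0% of all genes tested. In wild type this held for 5 of the 8 (Ezh2, Eed, Rnf2, Bmi1 and Kmt2a), against 47.7% of all genes. These 5 of 8 were thus lower on replicate 2 in both groups, as were 28.8% of all genes. For Suz12, Cbx2 and Cbx8 the wild-type arrays differed the other way round. The ratio of 5' to 3' actin signal, a sign of RNA quality, was 0.728 and 0.771 in Hox13dKO, and 0.473 (replicate 1) and 0.764 (replicate 2) in wild type. The same ratio for Gapdh was 1.17 and 1.16 in Hox13dKO, against 1.23 and 1.25 in wild type. The part of RNA quality in these values was not tested.

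**Figure D3:**
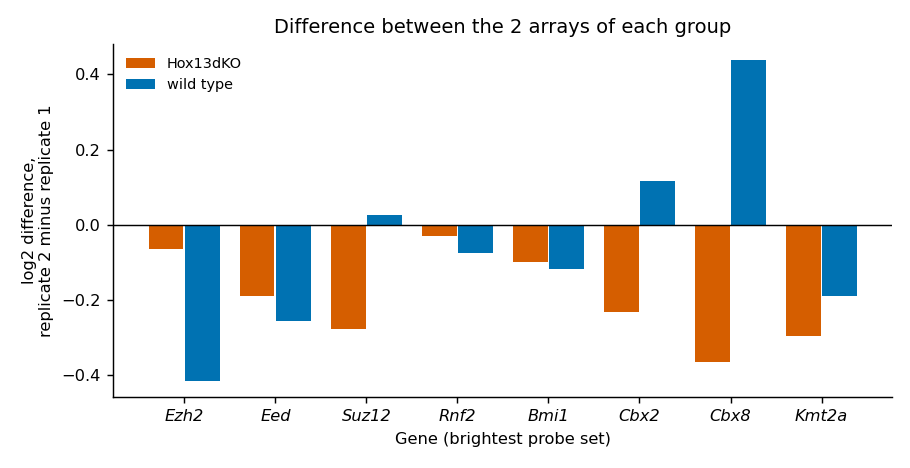
Log2 difference between replicate 2 and replicate 1 for the 8 tested regulators in Hox13dKO (orange) and wild type (blue), by brightest probe set. All 8 orange bars point down, from -0.029 (Rnf2) to -0.36 (Cbx8), and the blue bars of Suz12, Cbx2 and Cbx8 point up.

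By likeness of signals over the 4 arrays, each gene centred on its own mean, the genes nearest to Ezh2 among the 13072 were Nhlrc3, Sun2 and Phc1. Their mean absolute difference from Ezh2 was 0.0070, 0.0077 and 0.0087 on the log2 scale. Phc1 encodes a polyhomeotic subunit of PRC1 and read 3145 and 3060 units in Hox13dKO, against 3411 and 2540.0 units in wild type. With only 4 arrays such likeness is common, and 145 genes lay within 0.05 of Ezh2.

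The wider Polycomb and trithorax machinery gave the same count. Of 64 further genes of these complexes, 61 had a probe set of their own and were tested. By limma 0 of the 61 passed and 4 had an unadjusted p under 0.05, and their median difference was -0.021. The background by brightest probe set was 0.306% past the adjusted threshold and 7.25% at the unadjusted one. Of the 61, 5 separated with higher and 12 with lower values in Hox13dKO, and 17.1% and 20.1% of all genes did so.

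Among further PRC2 genes, the histone-binding subunit genes Rbbp4 and Rbbp7 differed by -0.11 ± 0.16 and -0.051 ± 0.13, with other tested Rbbp4 probe sets at 0.52 ± 0.38 and -0.50 ± 0.70. Ezh1, the second methyltransferase gene, differed by 0.20 ± 0.33, and by its other tested probe set by 0.63 ± 0.51. Of the accessory subunits, Phf19 differed by -1.05 ± 0.61 at dim signals of 34.7 to 136 units, and its other probe set by 0.98 ± 0.84. Epop differed by -0.24 ± 0.20 and Mtf2 by 0.23 ± 0.25, with its other tested probe sets between 0.023 and 0.52. By brightest probe set none of the 9 genes of these 2 lists passed or had an unadjusted p under 0.05.

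Among further PRC1 genes, Bcor, a corepressor of a variant PRC1, read 932 and 1034 units in Hox13dKO, against 1477 and 1221 units in wild type. The groups did not overlap by any of its 3 probe sets, at -0.45 ± 0.17, -0.46 ± 0.19 and -0.87 ± 0.32, but none passed (adjusted p = 0.674 by the brightest, limma). Auts2, another variant PRC1 gene, read 4731 and 3748 units in Hox13dKO, against 3215 and 3340 units in wild type, a difference of 0.36 ± 0.15, and its other tested probe sets differed by 0.64, 0.19 and 1.05. Pcgf5 differed by -0.66 ± 0.34 and, by its other tested probe set, by 0.26. Phc2, a polyhomeotic gene like Phc1, differed by 0.32 ± 0.13 and by -0.0053 ± 0.14 with its other probe set. Cbx6 and Scmh1 differed by -0.16 ± 0.17 and -0.21 ± 0.26. In the deubiquitinase that removes the PRC1 mark, Bap1, Asxl3 and Asxl1 differed by -0.12 ± 0.13, 0.17 ± 0.33 and -0.082 ± 0.17, and another Asxl1 probe set by 0.80 ± 0.73.

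On the activating side, Kmt2e, listed by the family name it shares with Kmt2a, differed by 0.26 ± 0.19 by its brightest probe set. By that probe set the groups overlapped. Others differed by 0.74 ± 0.19, 1.36 ± 0.43 and 1.21 ± 0.39, each with both Hox13dKO arrays above both wild-type arrays (unadjusted p = 0.0041, 0.0128 and 0.0138, limma). Such separation was found for 16.3% of all probe sets tested. The dimmest tested one differed by -0.014 ± 0.61, and none of the 5 passed. Kmt2c differed by 0.31 ± 0.26, and by 0.15 ± 0.32 and 0.91 ± 0.40 with its other tested probe sets, and Kmt2d by -0.16 ± 0.24. Of the partners of KMT2A and related methyltransferases, Wdr5 differed by 0.23 ± 0.13, with its other probe set at -0.14 ± 0.16. Paxip1 differed by -0.19 ± 0.15, with other tested probe sets at -0.46, -0.47 and -0.012, and Psip1 by -0.062 ± 0.13. Kdm6a and Kdm6b, the demethylases that erase the PRC2 mark, differed by -0.067 ± 0.23 and -0.019 ± 0.25, and by other tested probe sets Kdm6a by 0.011 and Kdm6b by 0.28 and 0.29.

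The BAF chromatin remodellers, also of the trithorax group, held the lowest p of the 61 genes. Smarcd3, a BAF subunit of heart and muscle, read 1733 and 1406 units in Hox13dKO, against 940 and 958 units in wild type. The groups did not overlap, with a difference of 0.72 ± 0.16, without passing (unadjusted p = 0.00238, adjusted p = 0.244, limma). Of 5 muscle markers tested beside it 1 passed, against 0.306% of all genes, namely the muscle actin gene Actc1, with 880 and 2252 units in Hox13dKO, against 116 and 92.7 units in wild type. The list's differences ran from -1.16 (Pax3) to 3.76 (Actc1), and its summed signal, most of it Actc1 in Hox13dKO, was 1401 and 3244 units in Hox13dKO, against 317 and 358 units in wild type. The part of muscle cells in the Smarcd3 value was not tested. Smarcd1 and Smarce1 differed by -0.29 ± 0.17 and -0.18 ± 0.12, with the other tested Smarce1 probe set at 0.097 ± 0.17.

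Several of the Hox genes that these regulators govern passed the same test. Hoxd13 read 5.79 and 9.58 units in Hox13dKO, both below the floor, against 14540.4 and 16117 units in wild type (adjusted p = 6.41e-07, limma). All 4 targeted genes passed with lower signals, and Hoxd11 kept 348 and 454 units in Hox13dKO, against 1831 and 1745 units in wild type. Whether their probes lie within the removed sequence is not known here. Of 12 tested HoxA and HoxD genes outside the targeted ones 4 passed (Hoxa7, Hoxa11, Hoxd8 and Hoxd9), all higher in Hox13dKO, against 0.306% of all genes. By limma 11 of the 12 had an unadjusted p under 0.05, against 7.25% of all genes. Also, 11 separated with higher values in Hox13dKO, against 17.1% of all genes. The list median was 1.41, with a range of 0.084 (Hoxd10, not past) to 3.72 (Hoxa7). Hoxd9 read 9282 and 8878 units in Hox13dKO, against 2147 and 1516 units in wild type, a difference of 2.33 ± 0.18. The difference of Hoxd10, 0.084 ± 0.14, was within the range of the regulators.

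**Figure D4:**
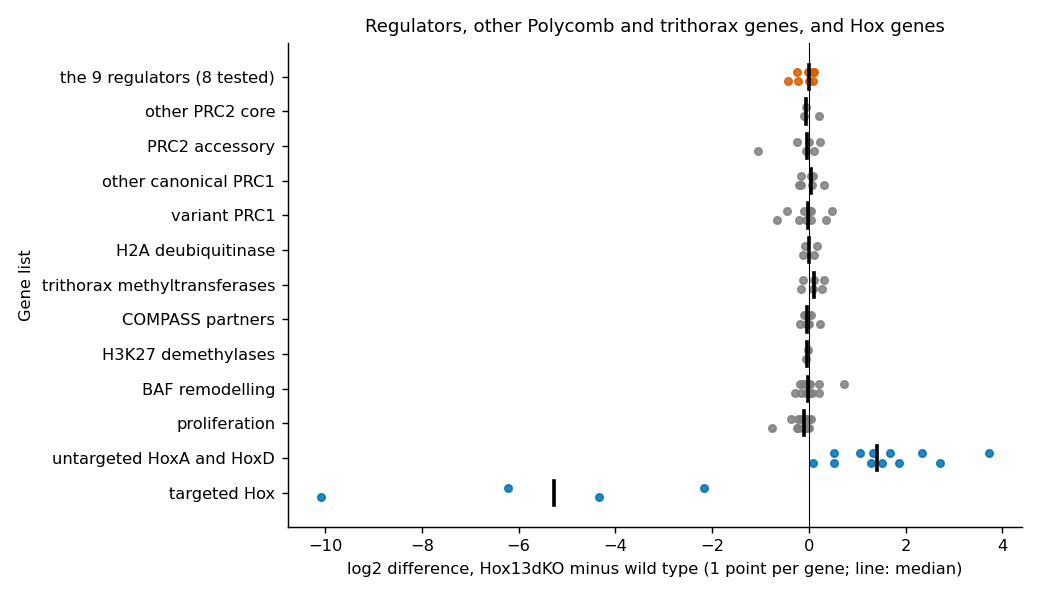
Log2 difference, Hox13dKO minus wild type, of each tested gene by brightest probe set, with the regulators in orange, other Polycomb, trithorax and proliferation genes in grey and Hox genes in blue, and black lines at the list medians. The regulators span -0.44 to 0.094, against medians of 1.41 for the untargeted and -5.28 for the targeted Hox genes.

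The arrays were scaled alike, with a 2% trimmed mean of 500.003 units each and medians of 66.1 and 81.2 units in Hox13dKO and 65.8 and 85.7 units in wild type. Markers of limb mesenchyme, the labelled tissue, were bright enough to test for 8 of 8 genes, with 0 past the threshold and a median log2 difference of -0.11. Their summed signal was 40251 and 32469 units in Hox13dKO, against 35549.9 and 33144 units in wild type. Of other cell types, ectoderm had 0 of 6 past and a median log2 difference of 0.29, endothelium 0 of 5 and 0.43, erythroid cells 0 of 4 and 0.23, and macrophages 0 of 4 and 0.18. The muscle list had a median of 1.93. These mixed samples cannot tell fewer cells of a type from less RNA per cell, and the part of cell makeup in the values of the regulators was not tested.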

How the data were processed

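The values analysed were the intensities per probe set that the authors deposited, made with MAS5 per the submitters' processing notes, on a linear scale, 1 array per sample. No source used here gives the version of MAS5, and detection calls and cell-level data were not used here. Per the labels' protocols, biotin-labelled cRNA was made from total RNA. Of 45101 probe sets, the platform annotation gave 1 gene symbol to 34958, several to 932 and none to 9211. The symbols of the 9 regulators matched RefSeq's table by gene ID.

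The 64 control probe sets were left out. A floor of 14.1 units, the 20th percentile of all signals, was set before taking log2, with no further normalization. Probe sets with a mean log2 signal at or above the 40th percentile, a geometric mean of 39.6 units, were tested with limma 3.58.1 in R 4.3.3 (lmFit and a two-sided eBayes test with its variance trend on signal). The p-values were adjusted over all 27022 by Benjamini-Hochberg, and each test had 2 residual and 6.05 prior degrees of freedom. The brightest probe set by mean log2 signal stood for a gene. Intervals use the moderated SE at 95%. On simulated arrays with 200 of 27022 probe sets changed, over 10 runs, 9.9% of 2-fold and 48.4% of 4-fold changes were recovered, with 4 false calls per run.

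The named genes are the 9 regulators, the targeted Hox genes, listed genes past the threshold, up to 3 of lowest p from each other Polycomb, trithorax or proliferation list, and the 3 genes nearest to Ezh2. Jarid2 was added for a probe set other than its brightest. Other probe sets of these genes, and the limit of 1000 units on signal, were chosen after the values were seen. The members, lists and settings were chosen with earlier results of these data known. Alternatives were other normalizations, floors, filters, priors and probe set choices, the replicate number as a block, other thresholds and leaving out each array. Figures were drawn with matplotlib 3.10.9.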

Additional observations from a re-analysis of the deposited data

How the results depend on the processing

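The count of 0 regulator probe sets past the threshold held under every alternative run: median centring or quantile normalization, a pseudocount or no floor, a stricter filter or none, eBayes made robust or without its trend, a block for the replicate number, 1 probe set per gene, no cross-hybridising probe sets, each array left out, an adjusted p of 0.10 and an added 1.5-fold limit. The added limit can only remove calls. With no filter 0 of all probe sets passed, and without the trend 1 did, so a count of 0 regulators was nearly fixed there. The other settings also called a small share of all probe sets (with all 4 arrays at most 418 of 27022, with the block). A count of 0 among 19 was thus likely under any of them, and its holding says little about the regulators. With all 4 arrays, 1 of 19 had an unadjusted p under 0.05 (limma) with each of the block, quantile normalization and median centring. Of all 27022 probe sets, 3123, 1835 and 1587 did so under these 3 settings, so 1 of 19 is near the background. The count over all probe sets, 56 (31 higher and 25 lower in Hox13dKO), was 202 (136 higher and 66 lower) after median centring, 0 with no filter (3159 at an unadjusted p under 0.05), 1 without the intensity trend, 418 with the block, 95 with 1 probe set per gene, 111 at an adjusted p of 0.10, and 11 (without Hox13dKO replicate 2) to 525 (without wild type replicate 2) with an array left out. The regulators' median was -0.11 without wild type replicate 2 and 0.064 without Hox13dKO replicate 2, and 0.090 with the mean over a gene's tested probe sets. The signs of uncalled differences turned for Rnf2 (0.032) and Kmt2a (0.025) after median centring. With an array left out Suz12 ranged from -0.36 to -0.084, Cbx2 from -0.37 to -0.13, Cbx8 from -0.66 to -0.22, Bmi1 from 0.024 to 0.14, Ezh2 from -0.12 to 0.29, Eed from -0.034 to 0.22, Rnf2 from -0.040 to 0.034 and Kmt2a from -0.16 to 0.14, and the causes were not tested. Same-numbered samples deviated together with r = 0.20 over probe sets. Hox13dKO replicate 1 correlated more with wild type replicate 1 (r = 0.965) than arrays did within Hox13dKO (0.958) or wild type (0.955). The replicate 2 arrays of both groups correlated least (0.948). With 2 pairs and no label for a shared litter, the main fit does not take the numbers as pairs. An array left out leaves a lone array that is assumed to vary like those of the other group. With 2 arrays a group, changes of 2-fold are seldom called (9.9% in the simulation). That share is not given by signal. The median SE over all tested probe sets was 0.28, against 0.12 to 0.17 for the 10 regulator probe sets of at least 1000 units. Cbx7 and the dim probe sets of Suz12, Cbx8 and Rnf2 were too dim for much to be said of them.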
